A study of Mus musculus with 13 samples.

Results

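Transcripts of 10 genes that mark basal duct cells and progenitor cells of salivary glands were followed in 13 RNA-seq libraries of the mouse submandibular gland, a major salivary gland. The genes were chosen by symbol (Krt5, Krt14, Krt15, Krt17, Trp63, Sox2, Sox9, Etv4, Etv5 and Kit), and all 10 were found among the 17957 entries of the authors' normalised table. Irradiated glands that had received AAV2-NRTN (Cere-120), an adeno-associated virus vector carrying the growth factor neurturin, gave 5 libraries (IR_NTN). Irradiated glands that had received AAV2-GFP, a vector of the same serotype with green fluorescent protein, gave 5 libraries (IR_GFP). Glands of mice that were not irradiated gave 3 libraries (NonIR). Both vectors were injected 10 days before irradiation. The labels give strain CH3 for all groups, an age of 1 year and harvest 300 days after treatment. No label says whether NonIR mice received a vector, so irradiation and vector cannot be told apart in any comparison with NonIR. The labels do not tie libraries to separate animals, so p-values measure the spread between these libraries, which may be technical.

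In the salivary gland, basal cells of the excretory ducts and the contractile myoepithelial cells around acini carry the keratin pair Krt5 and Krt14 and the transcription factor Trp63. Sox2 and Sox9 are transcription factors that mark progenitors of the developing gland, and Etv4 and Etv5 are transcription factors switched on by fibroblast growth factor signalling in growing end buds. Kit is the receptor of stem cell factor (Kitl) and is known from intercalated duct cells as well as from mast cells and melanocytes.

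RefSeq promoters on GRCm38.p6 were matched for 5 of the 10 genes. They are shown for Krt5 (a basal keratin), Kit (the duct receptor) and Etv5 (with the largest positive fold changes against NonIR among the 8 markers with enough reads to test), whose RefSeq start lies within 200 bases of the GENCODE gene start. Only bases upstream of both starts are printed, 5′ to 3′ on the gene's strand. Capitals mark matches on either strand to 9 motifs: TATAAA (the TATA box), CCAAT (named by its letters), GGGCGG (the GC box), GCCNNNGGC (AP-2), CGGAAG (ETS), ACAAT (SOX), TGANTCA (AP-1), CACCC (KLF) and GATAA (GATA). The Krt5 stretch is chr15:101712906-101713155 on the minus strand, the Kit stretch chr5:75574737-75574915 on the plus strand and the Etv5 stretch chr16:22439720-22439820 on the minus strand.
Krt5: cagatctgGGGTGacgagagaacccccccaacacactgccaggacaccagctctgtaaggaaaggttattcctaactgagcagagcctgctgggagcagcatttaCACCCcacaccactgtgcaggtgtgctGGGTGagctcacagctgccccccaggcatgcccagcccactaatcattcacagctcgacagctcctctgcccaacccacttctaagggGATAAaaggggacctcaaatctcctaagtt
Kit: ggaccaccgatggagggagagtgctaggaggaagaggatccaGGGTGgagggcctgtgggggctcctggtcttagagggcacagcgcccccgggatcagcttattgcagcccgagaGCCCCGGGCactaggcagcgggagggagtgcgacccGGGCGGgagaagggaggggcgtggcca
Etv5: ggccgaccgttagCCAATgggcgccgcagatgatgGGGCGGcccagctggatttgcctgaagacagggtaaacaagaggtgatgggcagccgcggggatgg
The Krt5 stretch held 3 KLF matches and, ending 26 bases before the start, 1 GATA match. The Kit stretch held 1 GC box, 1 AP-2 match and 1 KLF match. The Etv5 stretch held 1 CCAAT box and 1 GC box, and the whole 250 bases before the Etv5 start held 3 of each and 1 AP-2 match that overlaps a CCAAT box. Of all 32851 RefSeq promoters, 52% held a KLF match in the 250 bases before the start, 33.8% a CCAAT box, 32.7% a GC box, 22.6% a GATA match and 13.7% an AP-2 match. These matches describe letters only.

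Libraries held 9724301 to 16771003 reads on genes, and library sizes were scaled by TMM (trimmed mean of M values), so that levels are given as CPM, read counts relative to the scaled library size. The 13 genes listed as acinar were abundant in sum. Their summed level was 86771 to 186095 CPM in IR_NTN, 52526 to 135624 in IR_GFP and 156274 to 214858 in NonIR. Smgc weighed heavily on this sum, at means of 78662 CPM in IR_NTN, 39418 CPM in IR_GFP and 119139 CPM in NonIR. Which cells gave the Smgc reads was not tested, so the sum is not a measure of acinar cells. Of the 13 genes, 10 stood above 0 in IR_GFP against NonIR (median log2 fold change 0.14), where 52.7% of all genes did. Library IR_GFP 1 had the fewest reads, the lowest sum of these 13 genes and the highest scaling factor (1.421). It also held the highest Trp63, Sox2, Etv4 and Etv5 levels of all 13 libraries. Nrtn, the neurturin gene, had 56 to 161 reads in IR_NTN, 37 to 140 reads in IR_GFP and 34 to 87 reads in NonIR, and the EGFP entry had 0 reads in all 13 libraries, which allows up to 3 reads in each. The vector labels were therefore not checked by these transcripts.

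To set levels of different genes side by side, they were divided by kilobases of merged exon, the union of all annotated exons of a gene. This union can be longer than the transcript present, which lowers the value. It was longest for Kit (8.911 kb) and Trp63 (8.391 kb), so their places in the order are uncertain. By this measure Krt14 was the most abundant marker in all 3 groups, at 27.6 ± 6.46 CPM per kb in IR_NTN, 27.8 ± 2.81 in IR_GFP and 29.9 ± 1.34 in NonIR (SD, n = 5, 5 and 3). Its range lay above that of the next gene in each group. That next gene was Sox9 in IR_NTN (13.5 CPM per kb), Krt17 in IR_GFP (14.3 CPM per kb) and Sox9 in NonIR (19.8 CPM per kb). In NonIR the ranges of Sox9, Krt17, Kit and Krt5 were separate, in that order. In IR_NTN the ranges of neighbours overlapped from Sox9 to Krt17, from Krt17 to Kit and from Kit to Krt5, and in IR_GFP the ranges overlapped from Krt17 to Sox9 and from Sox9 to Kit. Etv5 and Trp63 followed at 1.07 to 1.82 CPM per kb, with overlapping ranges and with Etv5 ahead in both irradiated groups and Trp63 ahead in NonIR. Krt15 lay at 0.279 to 0.514 CPM per kb. Sox2 and Etv4 came last in every group at 0.0535 to 0.169 CPM per kb.

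**Figure D1:**
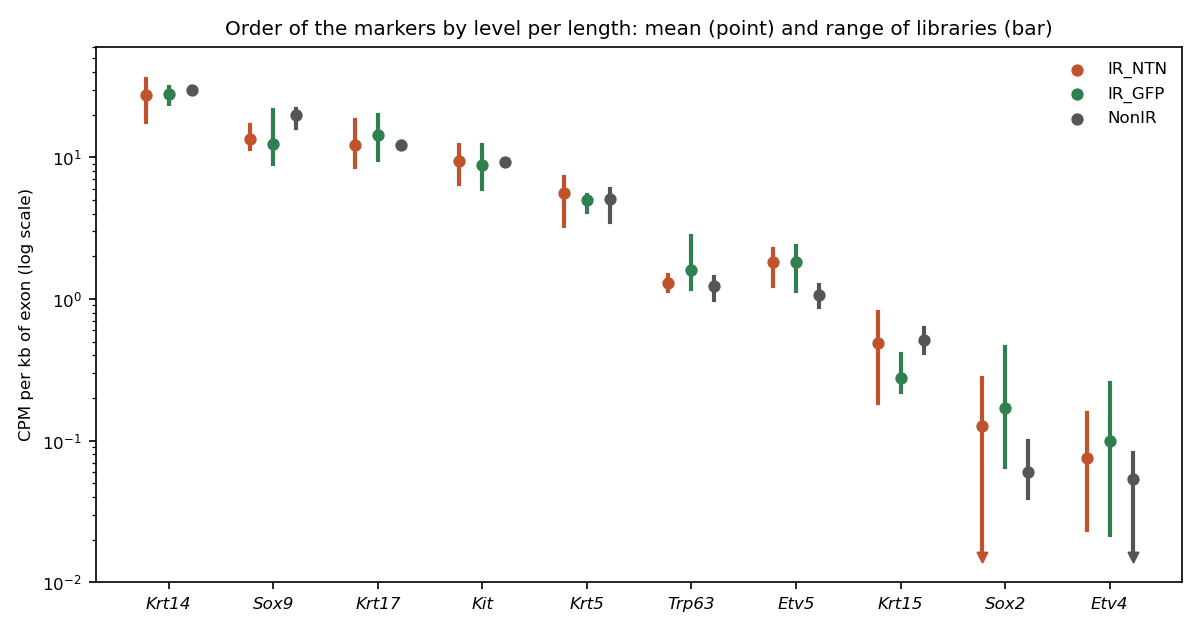
Level of each marker per kilobase of exon (y axis, CPM per kb, log scale) for IR_NTN, IR_GFP and NonIR from left to right within each gene, with the mean as a point and the range over libraries as a bar. An arrowhead marks a range that reaches 0; Krt14 is highest and Sox2 and Etv4 are lowest in all 3 groups.

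Of the 10 markers, 8 passed the filter on low counts and were tested, and none was called at an adjusted p under 0.05 in any of 4 comparisons (edgeR quasi-likelihood with Benjamini-Hochberg adjustment over 14727 genes). Few genes of the whole table were called: 0.0204% in IR_NTN against IR_GFP, 0.034% in IR_GFP against NonIR, 0.0204% in IR_NTN against NonIR, and 0.109% with both irradiated groups averaged against NonIR. With IR_NTN against IR_GFP, 0 of the 8 had an unadjusted p under 0.05, where 6.08% of all genes did. In IR_GFP against NonIR and in IR_NTN against NonIR the same count was 2 of 8, Sox9 and Etv5 in each, where 8.78% and 7.97% of all genes did; these comparisons share their NonIR libraries. With both irradiated groups averaged it was again Sox9 and Etv5, where 8.74% of all genes did. DESeq2 and limma-voom also called 0 of the 8 in every comparison. The median log2 fold change of the 8 was 0.05, −0.05, 0.01 and 0.02 in the comparisons in this order, against −0.01, 0.02, 0.0029 and 0.01 over all genes tested. In bulk tissue, fewer cells of a type and less RNA per cell cannot be told apart in any of these values.

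**Figure D2:**
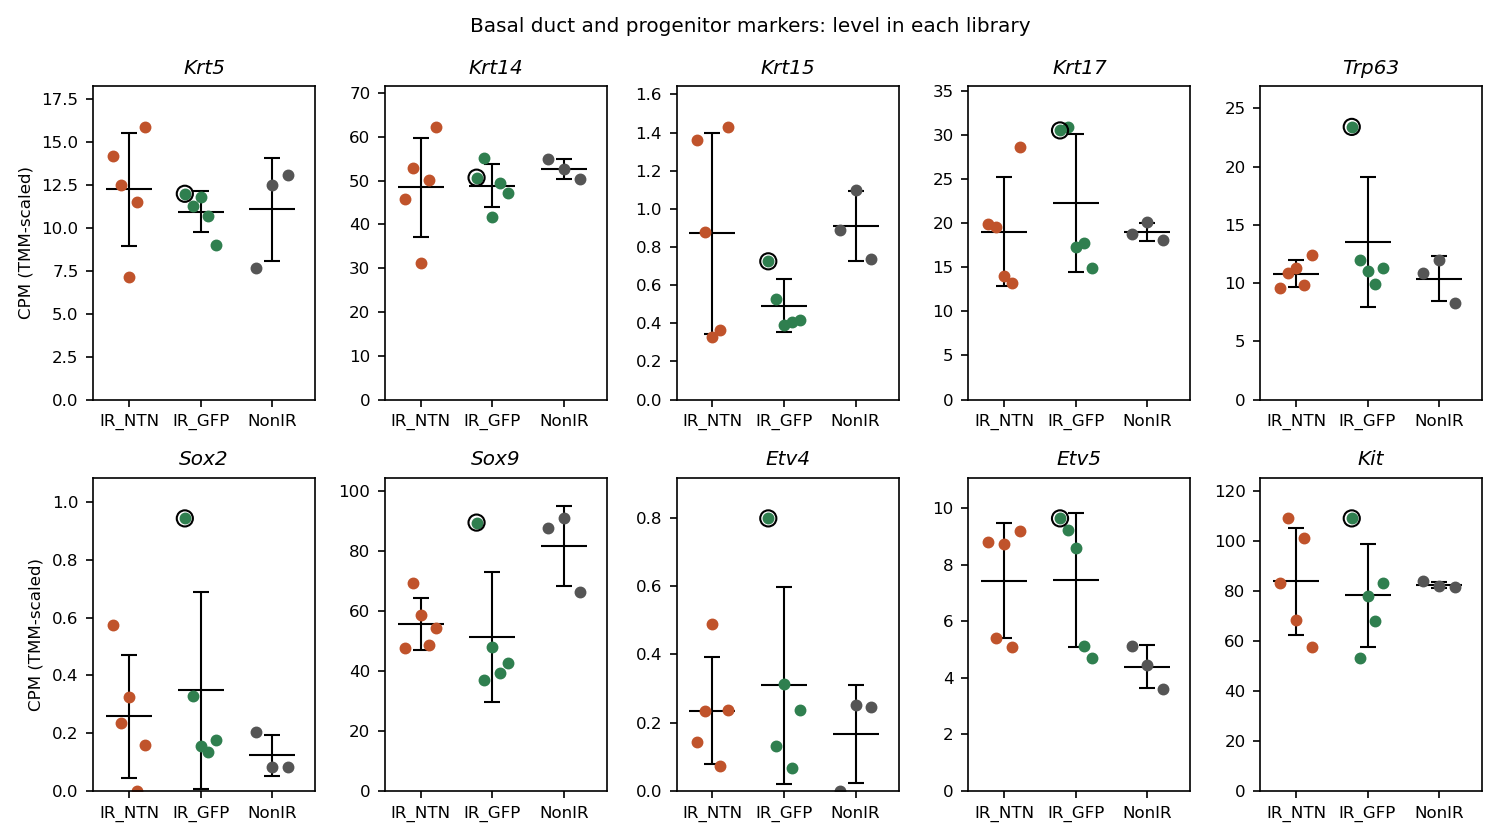
CPM of each marker in every library (y axes start at 0 and differ between genes) for IR_NTN, IR_GFP and NonIR from left to right, with the mean and SD in black and library IR_GFP 1 ringed. Sox9 is the marker whose NonIR libraries (66.4 to 91.0 CPM) stand highest relative to most irradiated libraries, with IR_GFP 1 at 89.6 CPM.

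None of the basal keratins, nor Trp63, was called in any comparison. Krt14, the acidic partner of the basal keratin pair, was at 45.8, 53.0, 31.3, 50.1 and 62.3 CPM in IR_NTN, 50.7, 55.2, 41.7, 49.4 and 47.3 CPM in IR_GFP and 55.0, 52.7 and 50.3 CPM in NonIR. All 3 groups overlapped, and the lowest and the highest value both came from IR_NTN. Its log2 fold change was −0.01 in IR_NTN against IR_GFP (95% interval −0.33 to 0.31) and −0.11 in IR_GFP against NonIR (−0.47 to 0.26). Krt5, the basic partner, was at 14.2, 12.5, 7.17, 11.5 and 15.9 CPM in IR_NTN, 12.0, 11.3, 11.8, 10.7 and 9.03 CPM in IR_GFP and 7.66, 12.5 and 13.1 CPM in NonIR. Again the groups overlapped, with the lowest Krt5 value in the same IR_NTN library as the lowest Krt14 value. The log2 fold change of Krt5 was 0.16 in IR_NTN against IR_GFP (−0.26 to 0.58) and −0.02 in IR_GFP against NonIR (−0.50 to 0.47).

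Krt17, a keratin of basal and stress-exposed epithelium, was at 19.9, 19.5, 14.0, 13.2 and 28.6 CPM in IR_NTN, 30.5, 30.9, 17.3, 17.7 and 14.9 CPM in IR_GFP and 18.8, 20.1 and 18.1 CPM in NonIR. Libraries IR_GFP 1 and 2 were the highest of all 13, and the NonIR values lay inside the range of both irradiated groups. Its log2 fold change in IR_GFP against NonIR was 0.23 (SE 0.27), 0.08 without IR_GFP 1 and −0.22 without IR_GFP 1 and 2 together. Leaving out the libraries highest in Krt17 lowers this value by construction. Library IR_GFP 2 also held the highest summed level of 6 muscle and fat genes, 154 CPM against 2.61 to 19.4 CPM in the other libraries; the part of these genes' tissue in the Krt17 value was not tested. Krt15, a keratin of basal cells with stem-like properties in skin, had few reads: 4 to 19 in IR_NTN, 5 to 10 in IR_GFP and 9 to 13 in NonIR. It averaged 0.872 ± 0.526 CPM in IR_NTN, 0.493 ± 0.141 CPM in IR_GFP and 0.907 ± 0.181 CPM in NonIR (SD, n = 5, 5 and 3). All 5 IR_GFP libraries lay below all 3 NonIR libraries. Of the 8 markers, 1 thus lay lower without overlap in that comparison, where 2.27% of all genes did. The nearest Krt15 values were 0.725 CPM in IR_GFP 1 (10 of 9724301 reads) and 0.735 CPM in NonIR 3 (9 of 13221470 reads). The separation therefore rests on the TMM scaling of library sizes. The log2 fold change was −0.87 (SE 0.48, edgeR adjusted p = 0.636). Against IR_GFP, Krt15 in IR_NTN stood at 0.82 (SE 0.42, adjusted p = 0.848), with IR_NTN libraries both below and above the IR_GFP range.

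Trp63, the master regulator of basal epithelium, was at 9.61, 10.9, 11.3, 9.79 and 12.4 CPM in IR_NTN, 23.4, 12.0, 11, 9.91 and 11.3 CPM in IR_GFP and 10.9, 12.0 and 8.25 CPM in NonIR. Of the 13 libraries, 12 lay between 8.25 and 12.4 CPM, and the exception was IR_GFP 1. The log2 fold change in IR_GFP against NonIR was 0.38 (SE 0.25, adjusted p = 0.696) with all libraries and 0.08 without IR_GFP 1. In IR_NTN against IR_GFP it was −0.32 (SE 0.21, adjusted p = 0.892) with all libraries and −0.01 without IR_GFP 1. IR_GFP 1 held the highest Trp63 level, so leaving it out shrinks both fold changes by construction.

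Sox9, a transcription factor of duct and end bud progenitors, had the lowest fold change of the well-measured markers against NonIR. It was at 47.7, 69.3, 58.8, 48.7 and 54.5 CPM in IR_NTN, 89.6, 37.2, 48.2, 39.3 and 42.6 CPM in IR_GFP and 87.9, 91.0 and 66.4 CPM in NonIR. All irradiated libraries except IR_GFP 1 and IR_NTN 2 lay below the lowest NonIR library. The log2 fold change in IR_GFP against NonIR was −0.67 (SE 0.24, edgeR adjusted p = 0.462), and in IR_NTN against NonIR −0.55 (SE 0.24, adjusted p = 0.622). Without IR_GFP 1, Sox9 averaged 41.8 ± 4.83 CPM in IR_GFP (SD, n = 4) and 81.8 ± 13.4 CPM in NonIR (SD, n = 3), a log2 fold change of −0.98 that passed the threshold (SE 0.15, edgeR adjusted p = 0.0336). With both irradiated groups averaged and without IR_GFP 1, the log2 fold change was −0.76 with an adjusted p of 0.0270. Leaving out IR_GFP 2 as well gave log2 fold changes of −0.94 (SE 0.17, adjusted p = 0.110) and −0.74 (SE 0.14, adjusted p = 0.0550). IR_GFP 1 stood apart in Sox9 itself, so leaving it out enlarges the Sox9 fold change by construction. The calls made without it are therefore not separate support for a lower Sox9 level. Calls over all genes also rose without IR_GFP 1, from 5 to 17 in IR_GFP against NonIR and from 16 to 38 with both averaged. Between IR_NTN and IR_GFP the log2 fold change was 0.12 (SE 0.22) with all libraries and 0.44 without IR_GFP 1, neither called. Across the 3 groups, 14 of 15 luminal duct genes also stood below 0 in each irradiated group against NonIR, at medians of −0.22 in IR_NTN and −0.16 in IR_GFP against 0.0029 and 0.02 over all genes. Of these genes 0 were called, and their part in the Sox9 value was not tested.

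Sox2, a progenitor transcription factor linked to parasympathetic nerve input in the developing gland, was too low to test. Its reads numbered 8, 4, 4, 0 and 2 in IR_NTN, 13, 5, 2, 2 and 3 in IR_GFP and 3, 1 and 1 in NonIR. The highest count again came from IR_GFP 1, and all 3 groups overlapped, with 0 reads in 1 IR_NTN library. Sox2 lies wholly inside the noncoding gene Sox2ot on the same strand, whose highest level was 0.508 CPM, so reads of these genes could not be separated with certainty. Without the filter on low counts, the log2 fold change of Sox2 was −0.39 in IR_NTN against IR_GFP (SE 0.61) and 1.34 in IR_GFP against NonIR (SE 0.84, edgeR adjusted p = 0.860). Its mean was 0.348 CPM in IR_GFP with all libraries, 0.200 CPM in IR_GFP without library 1 and 0.124 CPM in NonIR.

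Etv5 had the largest positive fold changes of the tested markers against NonIR, and its close relative Etv4 was nearly silent. Etv5 was at 8.82, 5.40, 8.72, 5.08 and 9.20 CPM in IR_NTN, 9.64, 9.24, 8.60, 5.12 and 4.70 CPM in IR_GFP and 5.13, 4.47 and 3.60 CPM in NonIR. In each irradiated group 3 libraries lay between 8.60 and 9.64 CPM and the other 2 lay between 4.70 and 5.40 CPM, close to the NonIR range of 3.60 to 5.13 CPM. The log2 fold change was 0.76 in IR_GFP against NonIR (SE 0.29, edgeR adjusted p = 0.466) and 0.75 in IR_NTN against NonIR (SE 0.29, adjusted p = 0.535). Without IR_GFP 1 and 2 together the first of these was 0.44. These libraries held the highest Etv5 levels of IR_GFP (9.64 and 9.24 CPM), so leaving them out lowers this fold change by construction. Between IR_NTN and IR_GFP the log2 fold change of Etv5 was −0.0042 (95% interval −0.51 to 0.50). Etv4 had 2, 4, 6, 1 and 3 reads in IR_NTN, 11, 2, 4, 1 and 4 reads in IR_GFP and 0, 3 and 3 reads in NonIR, too few to test. Its highest count was also in IR_GFP 1.

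Kit was the marker with the most reads, and its group means were close. It was at 83.1, 109, 68.5, 101 and 57.7 CPM in IR_NTN, 109, 53.1, 78.1, 68.0 and 83.2 CPM in IR_GFP and 83.8, 82.0 and 81.6 CPM in NonIR. The 3 NonIR libraries lay close together, between 81.6 and 83.8 CPM, and both irradiated groups spread above and below them. The log2 fold change was 0.10 in IR_NTN against IR_GFP (95% interval −0.30 to 0.50), −0.08 in IR_GFP against NonIR (−0.54 to 0.38) and 0.02 in IR_NTN against NonIR (−0.44 to 0.49). Without IR_GFP 1 the values were 0.27 in IR_NTN against IR_GFP and −0.24 in IR_GFP against NonIR, neither called. Markers of the other cells that carry Kit were low: of 14 mast cell genes 4 were tested, and the summed level of all 14 was 14.8 to 20.5 CPM in IR_NTN, 14.7 to 18.7 CPM in IR_GFP and 12.3 to 22.3 CPM in NonIR, most of it from Slc45a3 (10.1 to 19.7 CPM). The high-affinity IgE receptor genes Fcer1a and Ms4a2 stood at no more than 0.0844 CPM in any library, and Tpsg1 at 0. Of the 4 tested mast cell genes, 2 stood above 0 and 2 below in IR_NTN against IR_GFP. Cma1, a mast cell chymase, had 28 reads in IR_NTN and 118 reads in IR_GFP. It averaged 0.421 ± 0.195 CPM in IR_NTN and 1.60 ± 0.238 CPM in IR_GFP (log2 fold change −1.94, SE 0.37, edgeR adjusted p = 0.139). Cma1 was called with DESeq2 (adjusted p = 0.00362) and with edgeR without the filter on low counts (adjusted p = 0.0485). Tpsb2 stood at −1.68 (SE 0.59), while Gata2 (0.96, SE 0.45) and Slc45a3 (0.31, SE 0.17) went the other way. Most mast cell genes too low to test also had fewer reads in IR_NTN than in IR_GFP. Mcpt4 had 9 and 31 reads, Tpsab1 3 and 12, Cpa3 10 and 19 and Hdc 2 and 14. Mrgprb1 had 3 and 8 reads and Il1rl1 6 and 11, while Mrgprb2 had 2 and 1. Kit stood at 0.10, and the part of mast cells in the Kit value was not tested. Of 6 pigment cell genes, Tyrp1, Tyr and Slc45a2 were at 0 in all 13 libraries, and Dct and Mlana stood at no more than 0.156 CPM in any. Pmel, the sixth, had reads in every library and averaged 1.05 ± 0.396 CPM in IR_NTN, 1.26 ± 0.568 CPM in IR_GFP and 1.23 ± 0.495 CPM in NonIR.

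**Figure D3:**
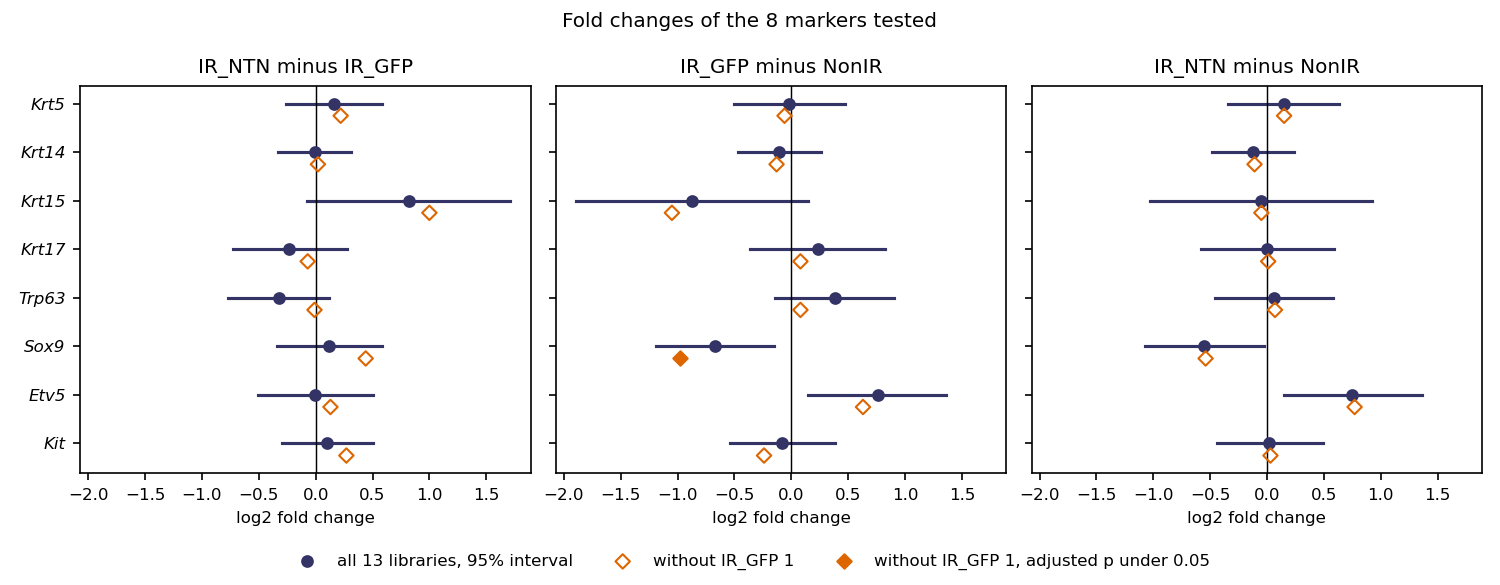
Log2 fold change (x axis) of the 8 tested markers in 3 comparisons, with 95% intervals from edgeR on all 13 libraries as points and bars, and the value without library IR_GFP 1 as diamonds. Only Sox9 in IR_GFP minus NonIR, at −0.98 without IR_GFP 1, has a filled diamond (adjusted p = 0.0336). IR_GFP 1 stood apart in its own Sox9 value, so leaving it out enlarges this fold change by construction.

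Among the markers, the keratin pairs had positive correlations from library to library. Across the 13 libraries, Pearson's r of log2 CPM lay between 0.49 (Krt5 with Krt17) and 0.59 (Krt5 with Krt15) for the 6 keratin pairs, and was 0.54 for Krt5 with Krt14 (permutation p = 0.0584, adjusted p = 0.232; Spearman's rho 0.30, permutation p = 0.315). With the 2 libraries farthest from the Krt5 median left out (IR_NTN 3 and NonIR 1), r for Krt5 was 0.43 with Krt14, 0.82 with Krt15 and 0.43 with Krt17. The libraries farthest from the Krt14 median, and from the Krt15 median, were IR_NTN 3 and 5. Without these, r was 0.28 for Krt14 with Krt15, 0.39 for Krt14 with Krt17 and 0.33 for Krt15 with Krt17. Of 28 pairs among the 8 markers, 5 had an unadjusted permutation p under 0.05 by Pearson and 5 by Spearman, and 0 remained after adjustment over the 28. Values of this size were not particular to the keratin pairs. Krt17 with Trp63 had r = 0.59 (permutation p = 0.0202, adjusted p = 0.186) and Sox9 with Kit 0.53, and each was 0.42 without IR_GFP 1. The pair of Trp63 and Sox9 had r = 0.40 over 13 libraries and 0.03 without IR_GFP 1. Etv5 values fall into a higher and a lower cluster, so its relations with the other markers are shown in the figure but not read here.

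**Figure D4:**
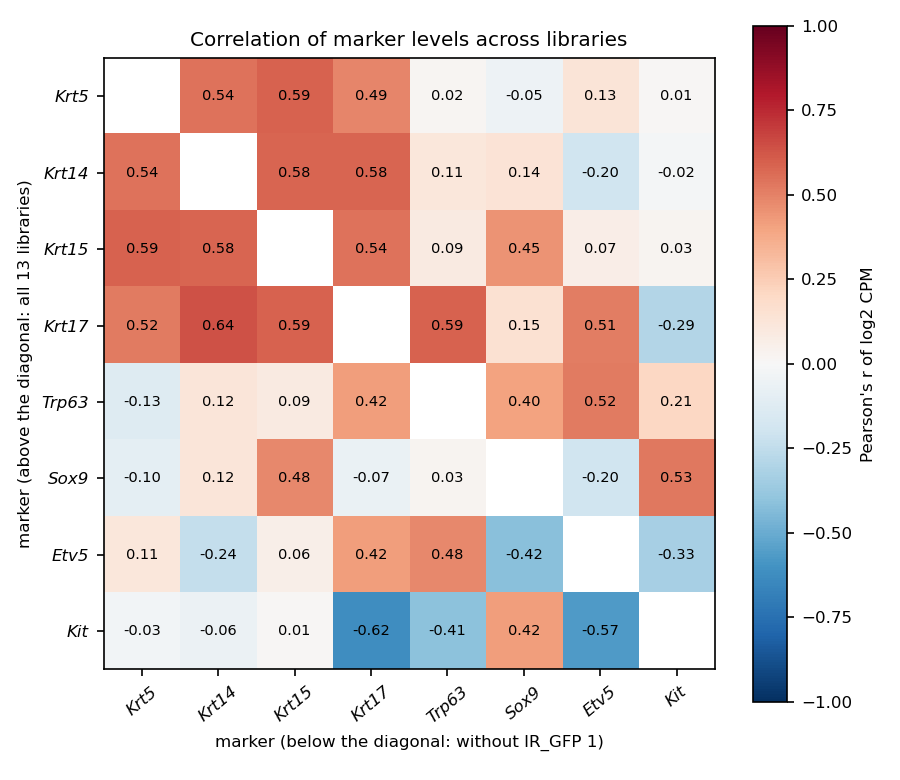
Pearson's r of log2 CPM (colour and number) between the 8 tested markers, over 13 libraries above the diagonal and without IR_GFP 1 below it. The 4 keratins have positive values with each other (0.49 to 0.59 above the diagonal). Pairs such as Krt17 with Trp63 (0.59) and Sox9 with Kit (0.53) reach a similar size. The value for Trp63 with Sox9 is 0.40 above and 0.03 below.

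Among 11637 protein-coding genes of at least 1 CPM, the genes whose deviations from the group means were most like those of Krt14 over 13 libraries were Lzts1 (r = 0.94), Acta2 (r = 0.88) and Cdhr2 (r = 0.88). Acta2 is smooth muscle actin, the contractile protein of myoepithelial cells, and its r with Krt14 was 0.93 without IR_GFP 1. The summed level of 13 myoepithelial genes was lowest in the IR_NTN library with the lowest Krt14 (611 CPM) and highest in the one with the highest Krt14 (979.6 CPM). In IR_GFP the libraries with the lowest and the highest Krt14 also had the lowest and the highest sum (711 and 796 CPM). In NonIR the library with the highest Krt14 had the lowest sum (758 CPM, against 869 and 822 CPM). Acta2 is part of that sum, at a mean of 337 CPM in IR_NTN, so the sum is not separate from its correlation with Krt14. For Krt5 the most alike genes were Pirb (0.90), Slc35d1 (0.87) and Plekha6 (0.87), and for Krt17 they were Lgals9 (0.96), Chil1 (0.92) and Clu (0.92). Those for Trp63 were Gatad2b (0.99), Il13ra1 (0.98) and Arg1 (0.98), and those for Sox9 were Usp34, 1810013L24Rik and Ctdspl2, each at 0.95. Without IR_GFP 1 the same Sox9 values were 0.87, 0.88 and 0.81. For Etv5 the most alike genes were Ctnnd1 (0.91), Nufip2 (0.90) and Map1a (0.89). Removing group means leaves the higher and lower cluster of Etv5 in place, so these values are not read further. For Kit they were Gpc4 (0.93), Lrch1 (0.89) and AI597479 (0.89). These are the highest of many values over few libraries that share depth and composition, and they are descriptions.

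Other genes of the basal layer and of the progenitor programme had 0 calls with edgeR in every comparison. Of 25 further basal epithelial genes 20 were tested, with a median of −0.01 in IR_NTN against IR_GFP and 0.16 in IR_GFP against NonIR, where 14 of 20 stood above 0. The lowest unadjusted p in IR_GFP against NonIR belonged to Fermt1, an adaptor of integrin adhesion, at 9.31 ± 1.70 CPM in IR_GFP and 6.28 ± 0.941 CPM in NonIR (log2 fold change 0.56, SE 0.19, adjusted p = 0.399). Sfn, an epithelial 14-3-3 protein gene, stood at 0.65 in IR_NTN against IR_GFP (SE 0.25, adjusted p = 0.727) and Dsc3, a desmosomal cadherin, at −0.55 (SE 0.22, adjusted p = 0.743). Lama3, a chain of the basement membrane laminin of epithelia, stood at 0.63 in IR_GFP against NonIR (SE 0.24, adjusted p = 0.479). In the same comparison Sfn stood at −0.67 (SE 0.28, adjusted p = 0.515) and Perp, a desmosomal target of Trp63, at −0.34 (SE 0.15, adjusted p = 0.538), so that 2 genes of the list were higher and 2 lower at an unadjusted p under 0.05. Of 25 further progenitor regulators 20 were tested, with medians of 0.01 in IR_NTN against IR_GFP and 0.02 in IR_GFP against NonIR. Among these, Sox10, a transcription factor of end bud progenitors and of glia, averaged 41.8 ± 5.37 CPM in IR_NTN, 41.2 ± 10.5 CPM in IR_GFP and 26.3 ± 5.41 CPM in NonIR. It stood at 0.67 in IR_NTN against NonIR (SE 0.21, adjusted p = 0.443) and 0.65 in IR_GFP against NonIR (SE 0.21, adjusted p = 0.367). Prom1, a membrane protein of luminal epithelium, stood at −0.52 in IR_GFP against NonIR (SE 0.18, adjusted p = 0.429), and Ascl3, a factor of a duct progenitor and ionocyte lineage, at 0.97 (SE 0.42, adjusted p = 0.538). The glial list that shares Sox10 had a summed level of 148 to 189 CPM in IR_NTN, 163 to 182 CPM in IR_GFP and 149 to 171 CPM in NonIR. Its median log2 fold change in IR_GFP against NonIR was 0.41, with the myelin protein genes Pmp22 at 0.49 (SE 0.17, adjusted p = 0.394) and Mbp at 0.37 (SE 0.17, adjusted p = 0.541); the part of glia in the Sox10 value was not tested.

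The fibroblast growth factor pathway upstream of the Etv factors and the Kit pathway also had 0 calls with edgeR. Of 20 genes of the fibroblast growth factor list 17 were tested, with medians of −0.10 in IR_NTN against IR_GFP and 0.18 in IR_GFP against NonIR. The feedback inhibitor Spry4 averaged 1.98 ± 0.514 CPM in IR_NTN and 3.77 ± 1.61 CPM in IR_GFP (log2 fold change −0.93, SE 0.32, adjusted p = 0.669). The immediate early gene Fos averaged 1.14 ± 0.232 CPM in IR_NTN and 4.60 ± 4.09 CPM in IR_GFP (−2.01, SE 0.60, adjusted p = 0.618). The ligand Fgf1 averaged 45.1 ± 4.64 CPM in IR_NTN, 41.0 ± 6.31 CPM in IR_GFP and 57.2 ± 2.25 CPM in NonIR, with a log2 fold change of −0.48 in IR_GFP against NonIR (SE 0.14, adjusted p = 0.316). The ligand Fgf7 stood at 0.67 in that comparison (SE 0.31, adjusted p = 0.546). Of 14 Kit pathway genes 13 were tested, with medians of 0.08 in IR_NTN against IR_GFP and −0.13 in IR_GFP against NonIR. Kitl, the ligand of Kit, averaged 69.5 ± 12.8 CPM in IR_NTN, 60.9 ± 16.1 CPM in IR_GFP and 99.2 ± 24.9 CPM in NonIR. It stood at −0.51 in IR_NTN against NonIR (SE 0.22, adjusted p = 0.591) and −0.70 in IR_GFP against NonIR (SE 0.22, adjusted p = 0.351). Stat5a, a transcription factor activated below Kit, stood at −0.60 in IR_GFP against NonIR (SE 0.18, adjusted p = 0.331), and Cbl, a ubiquitin ligase that acts on activated Kit, at 0.45 (SE 0.18, adjusted p = 0.502). Of the remaining lists, none held a gene called with edgeR after the filter on low counts. Their medians in IR_NTN against IR_GFP and in IR_GFP against NonIR were 0.21 and −0.16 for myoepithelial genes (11 of 13 tested), 0.24 and −0.71 for granular tubule genes (14 of 14), 0.09 and 0.14 for acinar genes (13 of 13) and 0.01 and 0.41 for glial genes (9 of 13). For squamous skin genes they were 0.32 and 0.09 (4 of 13 tested), for mast cell genes −0.69 and −0.14 (4 of 14) and for muscle and fat genes −0.60 and 1.76 (3 of 6). The melanocyte list and the list of neighbouring nasal and oral epithelium had 1 tested gene each.

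**Figure D5:**
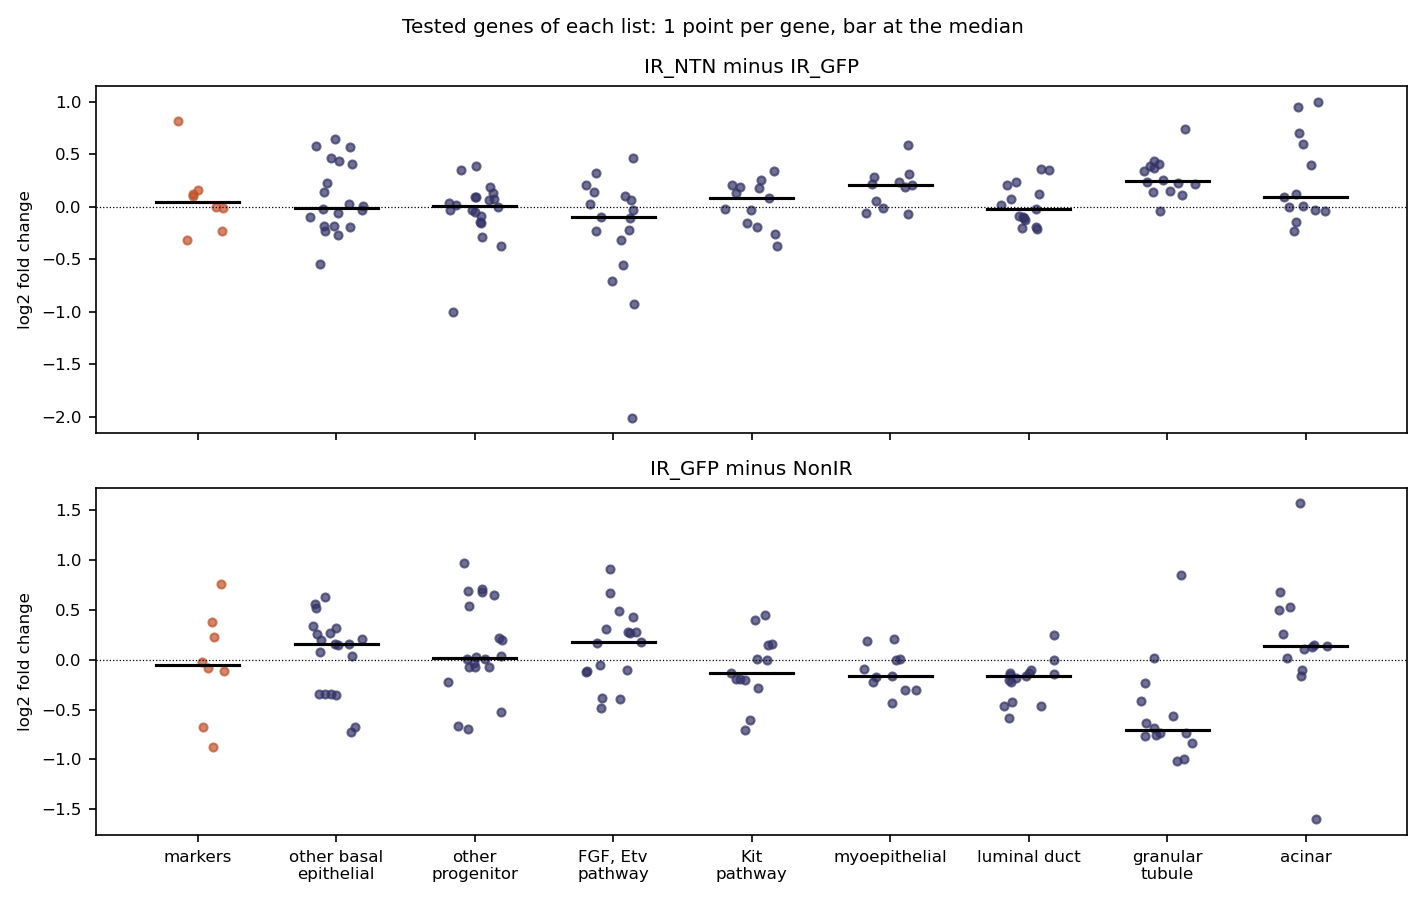
Log2 fold change (y axis) of every tested gene of the markers and of 8 related lists in IR_NTN minus IR_GFP (top) and IR_GFP minus NonIR (bottom), 1 point per gene with a bar at the median. The markers lie between −0.32 and 0.82 in the top panel and between −0.87 and 0.76 in the bottom panel, with medians of 0.05 and −0.05.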

How the data were processed

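Submandibular gland RNA of 13 samples was turned into full-length cDNA (SMART-Seq v4), fragmented with Nextera XT and sequenced on a NextSeq, per the labels' protocols. The series text names another instrument, other aligners and triplicates; the sample labels were followed. The submitters' processing notes name STAR 2.5.2a and the builds GRCm38.p3 and mm10. Not given in the sources used here are the counting tool, its strand setting and its handling of reads that match several genes. Reads shared by related keratins (Krt14 and Krt17, for example) are therefore uncertain, and reads from a gene and an overlapping gene cannot be told apart.

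The authors deposited raw counts per gene, used for every result, and a table of normalised signal values. In that table each library's values, divided by its smallest value above 0, were whole reads for 100% of values (tolerance 0.01 reads) and equalled the counts for 17956 of 17956 genes; edgeR on those reads, an alternative chosen after seeing the data, called 3, 5, 3 and 16 genes, as on the counts. Spike-in and transgene entries (at most 5.85e-05% of reads) were left out.

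Genes were filtered with filterByExpr by group, scaled by TMM and tested with edgeR 4.0.16 (quasi-likelihood, robust, legacy off, R 4.3.3) on all 13 libraries with 1 mean per group. The comparisons were IR_NTN with IR_GFP, IR_GFP with NonIR, IR_NTN with NonIR, and the equal-weight mean of both irradiated groups with NonIR. P-values are two-sided, adjusted by Benjamini-Hochberg across the 14727 genes tested, with a threshold of 0.05; fold changes are log2. The common dispersion was 0.07 (biological coefficient of variation 0.265), with 10 residual degrees of freedom. Tested on simulated data, the IR_GFP with NonIR fit recovered 34 of 100 genes changed by 1 on the log2 scale and 79 of 100 changed by 2; IR_NTN with IR_GFP recovered 52 and 86. The 95% intervals of fold changes come from the edgeR fit and include the spread between libraries; the limit of 3 reads for a count of 0 covers counting error only. Correlations used log2 CPM with a prior count of 2 and 100000 permutations.

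The 10 genes and the 14 related lists were chosen with earlier results of these data known. In each list, genes with an adjusted p under 0.05 were to be named, otherwise up to 4 with the lowest unadjusted p. Gene coordinates and exon lengths came from GENCODE mouse release M21 (GRCm38). Alternatives were other scalings (RLE, upper quartile), other filters, DESeq2 1.42.0, limma 3.58.1 (voom, and trend on the deposited signal with pseudocounts of 0.5 and 2), the replicate block, only the groups compared, and leaving out libraries. Replicate numbers did not pair the libraries.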

Additional observations from a re-analysis of the deposited data

Results flagged for a closer look

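In 20 groups of 5 values of the 10 markers, and 28 of summed related lists, 4 held a library whose gap to the nearest other was over 0.71 of the group's range; chance flags about 1 in 20 such groups. Trp63 in IR_GFP 1 was 23.4 CPM, against 9.91 to 12.0 CPM in the other 4 IR_GFP libraries. Sox2 in IR_GFP 1 was 0.943 CPM, against 0.135 to 0.330 CPM in the other 4. Sox9 in IR_GFP 1 was 89.6 CPM, against 37.2 to 48.2 CPM in the other 4. The summed level of the muscle and fat genes in IR_GFP 2 was 154 CPM, against 5.08 to 19.4 CPM in the other 4. The cause was not tested.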

How the results depend on the processing

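Over 25 alternatives, 731 of 791 values of the 8 tested markers kept their direction and their side of the threshold, 2 passed it and 58 changed sign, all where the fold change was at most 0.32 in size on the log2 scale. The 2 that passed were Sox9 without IR_GFP 1, at −0.98 in IR_GFP against NonIR and −0.76 with both irradiated groups averaged. Both rest on leaving out a library that stood apart in Sox9 itself. Sox9 and Etv5 kept their direction against NonIR under every alternative run. No gene of the related lists was called under any alternative run, except Cma1 in IR_NTN against IR_GFP with DESeq2 (adjusted p = 0.00362) and with edgeR without the filter on low counts (adjusted p = 0.0485). The cause of the changes below was not tested.

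Sign changes in IR_NTN against IR_GFP were, for Etv5, 0.01 with RLE, DESeq2, voom and a pseudocount of 2, 0.00089 without the filter, 0.02 with a pseudocount of 0.5 and with the block, and 0.003 with only the groups compared. Without IR_GFP 1 and 2 together they were 0.10 for Krt14, 0.23 for Krt17, 0.04 for Trp63 and 0.32 for Etv5, and in the comparisons with NonIR −0.22 (IR_GFP) and −0.10 (both averaged) for Krt17. IR_GFP 1 and 2 held the highest IR_GFP levels of each of these markers, so leaving them out lowers the IR_GFP mean by construction. In IR_GFP against NonIR, Krt5 was 0.0024 with upper-quartile scaling, 0.02 with voom and 0.0038 with a pseudocount of 0.5. In IR_NTN against NonIR, Krt17 was −0.00085 with RLE, −0.0015 with upper quartile, −0.01 without the filter, −0.00089 with DESeq2, −0.05 with voom, −0.06 with a pseudocount of 0.5 and −0.05 with 2, and Kit was −0.01 with voom and −0.02 with both pseudocounts. With both averaged, Kit was 0.0045 with the replicate block.

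Leaving out each library in turn, values spanned −0.11 to 0.13 (Etv5), −0.12 to 0.11 (Krt14) and −0.01 to 0.27 (Kit) in IR_NTN against IR_GFP, and −0.21 to 0.12 (Krt5) and −0.24 to 0.03 (Kit) in IR_GFP against NonIR. In IR_NTN against NonIR they spanned −0.07 to 0.13 (Kit), −0.22 to 0.0046 (Krt14), −0.28 to 0.14 (Krt15), −0.19 to 0.11 (Krt17), −0.04 to 0.29 (Krt5) and −0.08 to 0.17 (Trp63). With both averaged they spanned −0.10 to 0.03 (Kit) and −0.13 to 0.20 (Krt5).

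Counts of genes called over the whole table were 3, 5, 3 and 16 in the 4 comparisons (IR_NTN with IR_GFP, IR_GFP with NonIR, IR_NTN with NonIR, both averaged with NonIR). They were 39, 68, 31 and 64 with DESeq2, 10, 20, 4 and 23 without the filter, 3, 0, 1 and 2 with voom, 4, 0, 3 and 7 with upper-quartile scaling, and 0, 0 and 2 in the first 3 with only the groups compared, 3, 5, 3 and 12 with RLE. The deposited values gave 4, 6, 2 and 2 with a pseudocount of 0.5 and 4, 0, 2 and 2 with 2. In IR_GFP with NonIR, the counts of 0 stand beside 1126 genes (voom), 1259 (upper quartile), 1218 (pseudocount of 2) and 1007 (only the groups compared) at an unadjusted p under 0.05, and in IR_NTN with IR_GFP beside 815 (only the groups compared). Without IR_GFP 1 and 2 together they were 1, 1, 5 and 17. Leaving out 1 library gave 0 to 11, 0 to 17, 0 to 4 and 0 to 38, with 11 and 6 in the first 2 without IR_GFP 4, and 0, 17, 4 and 38 without IR_GFP 1. With the replicate block 0 genes were called in every comparison, with 691, 1084, 879 and 1026 at an unadjusted p under 0.05. The numbers did not pair the libraries: 3 of 11 same-numbered pairs had a correlation of deviations over 0.1 (range −0.428 to 0.279), and 1 of 13 libraries correlated best with its own number.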

Other observations

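Keratins outside the basal set were also measured. The luminal keratin Krt18 averaged 629 ± 45.0 CPM in IR_NTN, 599 ± 36.0 CPM in IR_GFP and 664 ± 64.7 CPM in NonIR (SD, n = 5, 5 and 3), and Krt7 averaged 79.9 ± 9.57 CPM in IR_NTN, 85.1 ± 8.90 CPM in IR_GFP and 93.3 ± 14.3 CPM in NonIR. Krt4, a keratin of stratified mucosa, stood at 0.143 to 0.870 CPM in IR_NTN, 0.0782 to 0.535 CPM in IR_GFP and 0.821 to 1.10 CPM in NonIR, with a log2 fold change of −1.53 in IR_GFP against NonIR (edgeR adjusted p = 0.381). The injury keratins Krt6b and Krt16 were at 0 reads in all 13 libraries, and Krt6a had reads only in IR_NTN, at 0 to 0.238 CPM.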
